A study of Mus musculus with 12 samples.

Results

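The nuclear genes for the subunits of respiratory complexes III, IV and V, with cytochrome c, were followed in mouse hearts under pressure load on 2 diets. The genes were taken by symbol, as every row whose name begins with Uqcr, Cox4 to Cox8 followed by a letter, or Atp5, plus Cyc1 and Cycs, with 2 pseudogene rows left out. This gave 45 of the 27179 genes in each of the deposited tables, namely 9 of complex III, 1 cytochrome c gene, 18 of complex IV and 17 of complex V. The mice were C57Bl/6J, 12 weeks old. Their food held no fat (the fat-free diet, 0 kcal%) or was rich in it (the high-fat diet, 60 kcal%), and each kept to it from 4 days ahead of the operation until the heart was removed 1 week later. The operation was transverse aortic constriction (TAC), a narrowing of the aortic arch against which the left ventricle must pump, or sham surgery. All groups shared the strain and had an operation, and the labels name no altered allele. The groups were fat-free sham (n = 3), fat-free TAC (n = 3), high-fat sham (n = 2, replicate 1 being one that was not analysed here) and high-fat TAC (n = 3). Whether the libraries are from different mice is not given, so p-values cover the spread between libraries, which may be technical.

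Complex III takes electrons from ubiquinol and hands them to cytochrome c, complex IV passes them from cytochrome c to oxygen, and complex V, the ATP synthase, uses the proton gradient that results to make ATP. The catalytic core of complex IV, cytochrome b of complex III and a pair of membrane subunits of complex V are encoded in mitochondrial DNA, and the genes described here supply the rest from the nucleus. Several subunits of complex IV exist as isoforms from separate genes, of which Cox6a2, Cox7a1 and Cox8b are the forms of heart and skeletal muscle in the mouse and Cox6a1, Cox7a2 and Cox8a the forms of most other tissues. The adult heart is among the tissues richest in mitochondria.

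Values are read counts that the authors normalized within each diet's table, and totals ran from 25906622 to 39699027 per library. Cardiomyocyte markers were abundant in every library, with 1060966 to 1447508 normalized counts over 9 genes. The libraries differed in the atrial marker Myl7, the light chain of atrial myosin, beyond what their groups explain. Myl7 stood at 9915, 274 and 8426 normalized counts in fat-free sham replicates 1 to 3, at 1758, 23 and 75 in the fat-free TAC libraries, at 4 and 6 in the high-fat sham libraries, and at 14839, 10 and 6 in the high-fat TAC libraries. High-fat TAC replicate 1 therefore stood apart from its group, also with 402581 counts of the natriuretic peptide gene Nppa against 33860 and 106638. The main counts, medians and isoform ratios are given with and without the libraries above 1000 Myl7 counts.

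The 45 genes together took 3.45 to 3.88% of the normalized counts in the fat-free sham libraries and 3.51 and 3.60% in the high-fat sham libraries. In sham hearts the levels, compared between genes as normalized counts per kb of exon, spanned a wide range. Atp5b, the catalytic beta subunit of the ATP synthase head, was highest with 107200 ± 6591 per kb (SD, n = 3, fat-free sham). Atp5g3, Cox4i1 and Atp5a1 followed at 72990, 72350 and 72160 per kb. Those neighbours did not differ beyond their spread. The muscle isoforms Cox7a1 and Cox6a2 stood at 62920 and 60300 per kb, close to Cox6c at 60740. At the other end were Cox4i2 with 278.8 per kb, the isoform of subunit 4 known from lung, and Cox6b2 with 67.3, the isoform known from testis. Cox7b2 had 0 to 12 counts in the 11 libraries and Cox8c had 0 in each, which allows up to 3 counts in a library. Neither passed the filter of 10 normalized counts in at least 3 libraries (fat-free) or 2 (high-fat), which left 43 genes tested. Of 4 testis markers, none exceeded 1 count in any library.

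**Figure D1:**
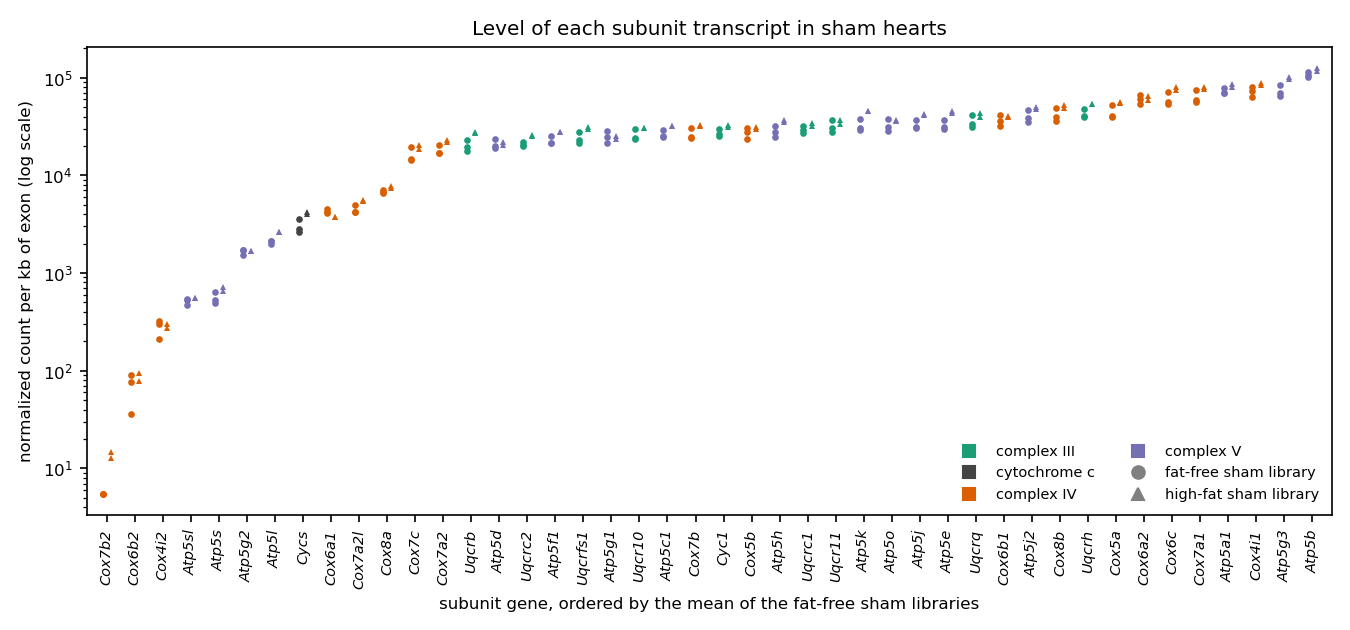
Level of each subunit transcript in sham hearts as normalized counts per kb of exon on a log scale, 1 point per library (circles, fat-free sham, n = 3, triangles, high-fat sham, n = 2), coloured by complex. Atp5b is highest at 107200 per kb in the fat-free sham mean, and the isoforms Cox4i2, Cox6b2 and Cox7b2 are lowest at 278.8, 67.3 and 5.53. Cox8c, at 0, cannot be drawn.

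On the fat-free diet most subunit fold changes lay slightly below 0, while the share that passed was not far above that of all genes. Of the 43 genes tested with limma (adjusted p under 0.1 over all genes), 6 fell and 0 rose, at a background of 10.0% of all 13995 genes lower and 14.2% higher. These were Cox7a1, Cox6c, Cox6b2, Cox7b, Atp5e and Atp5j. The log2 fold change was below 0 for 40 of the 43, with a median of -0.27 against -0.02 over all genes tested. Groups that did not overlap, with every TAC library below every sham library, were seen for 11 of the 43, against 17.6% of all genes. The authors' deposited table, from DESeq2 at 10% FDR, has 12 of the genes lower and 0 higher, among them all 6, against 9.92% of its genes lower. Fat-free TAC replicate 3 lay close to sham. The median gene stood 0.43 and 0.31 below the sham mean on the log2 scale in fat-free TAC replicates 1 and 2 but 0.05 below it in replicate 3. The number that passed was 24 without fat-free TAC replicate 3, 0 without replicate 1 or without replicate 2, and 1, 1 and 2 without fat-free sham replicates 1, 2 and 3. It was 0 without the 3 fat-free libraries above 1000 Myl7 counts, at a median of -0.39.

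On the high-fat diet the decrease was broad. Here 32 of the 43 genes fell and 0 rose by the same test, against a background of 14.8% of 14274 genes lower and 16.9% higher. The median log2 fold change was -0.76, a level 0.59 times that of sham, with -0.01 over all genes. In 41 of the 43 genes every TAC library lay below both sham libraries, against 33.1% of all genes, and the exceptions were Cox6a1 and Cox8a. The authors' deposited table has 40 of them lower, all 32 included, and 0 higher, against 17.7% of its genes lower. The median gene stood 1.16, 0.49 and 0.63 below the sham mean on the log2 scale in high-fat TAC replicates 1 to 3. The library that stood apart, replicate 1, had the lowest level, and 40 genes passed without it at a median of -0.55. No gene passed without high-fat sham replicate 2, without replicate 3 or without high-fat TAC replicate 3. Values scaled to the library total, which moved the median of all genes to 0.40, gave 13 lower and 2 higher, Cox6a1 and Cox8a.

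Several markers of other cells differed between TAC and sham. For the counts below, the share of all genes tested was 10.0% lower and 14.2% higher on the fat-free diet, and 14.8% and 16.9% on the high-fat diet. Of 8 fibroblast markers 4 rose on the fat-free diet (Col1a1, Col1a2, Col3a1 and Postn) and 5 on the high-fat one (these and Lum). Dcn, Pdgfra and Tcf21 did not pass on either diet. They stood at -0.275, 0.02 and -0.28 on the fat-free diet and at 0.23, 0.30 and 0.49 on the high-fat diet. The summed level of all 8 went from 23092 to 41131 normalized counts in fat-free sham to 56564 to 196774 in fat-free TAC. On the high-fat diet it went from 28258 to 34012 up to 103810 to 364915. Of 7 macrophage markers 6 rose on each diet, with sums of 7782 to 9567 and 6281 to 7831 in sham and of 13457 to 21437 and 10594 to 17463 in TAC. Among 9 cardiomyocyte markers, 4 rose on the fat-free diet (summed level 1151217 to 1333048 in sham, 1320591 to 1447508 in TAC) and none passed on the high-fat diet (1339891 to 1357684 and 1060966 to 1319173). The list was not uniform, with 3 of the 9 below 0 on the fat-free diet and 7 on the high-fat diet. Tnnt2 stood at -0.405 on the fat-free diet (limma adjusted p = 0.157), with every TAC library below every sham library. Ryr2 and Tpm1 stood at -0.23 and -0.003 there. The part of these cells in the lower subunit transcripts was not tested, and in RNA from whole tissue fewer cells of a type and less RNA per cell cannot be told apart. Centred on the cardiomyocyte markers, 40 subunit genes were lower on the fat-free diet and 32 on the high-fat diet. That centring shifts every gene, and the median of all genes tested moved to -0.23 and 0.13. The subunit median less that of all genes stayed at -0.26 and -0.75, as without centring. Why the fat-free count was larger was not tested. All 6 adipocyte markers tested fell on the fat-free diet, from sums of 561 to 915 to sums of 15 to 340. Their sums were 2 and 6 counts in high-fat sham and 4 to 1803 in high-fat TAC. Erythroid markers fell for 3 of 4 on the high-fat diet, from sums of 5767 to 8324 to sums of 1547 to 3816, and 0 of 4 passed on the fat-free diet. Among 6 smooth muscle and pericyte markers 1 rose on each diet, Cspg4 (0.72 and 0.96), and 1 fell on the fat-free diet, Myh11 (-1.11). Of 6 endothelial markers 1 rose on the fat-free diet and 0 passed on the high-fat diet. For these 2 lists the counts are near the share of all genes. Atrial markers fell for 2 of 6 on the fat-free diet and rose for 1 of 6 on the high-fat diet. The part of these lists was not tested either.

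**Figure D2:**
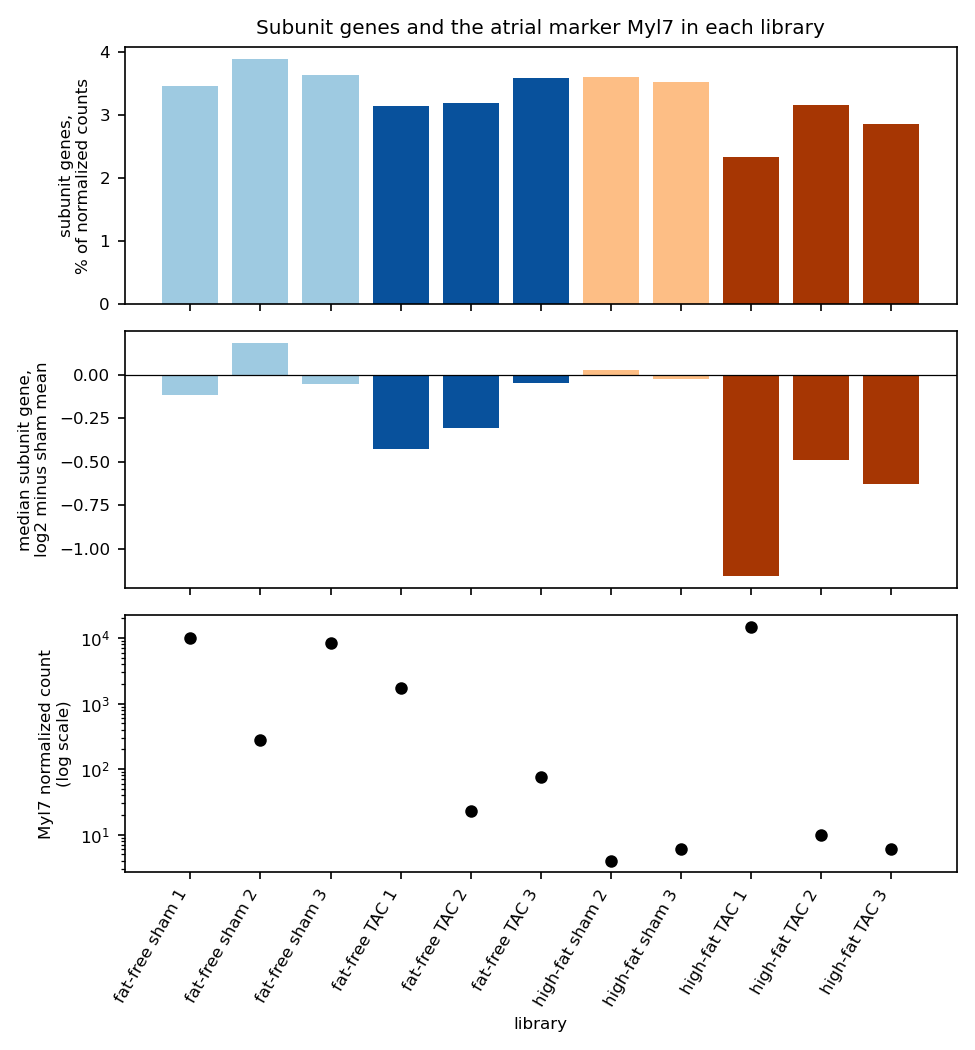
Share of all normalized counts held by the 45 subunit genes (top), median of the 43 tested genes as log2 minus the sham mean of the same diet (middle) and normalized count of the atrial marker Myl7 on a log scale (bottom), 1 bar or point per library. The high-fat TAC libraries held 2.33, 3.16 and 2.86% against 3.51 and 3.60% in high-fat sham, and replicate 1, the lowest, also had the highest Myl7 count at 14839.

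**Figure D3:**
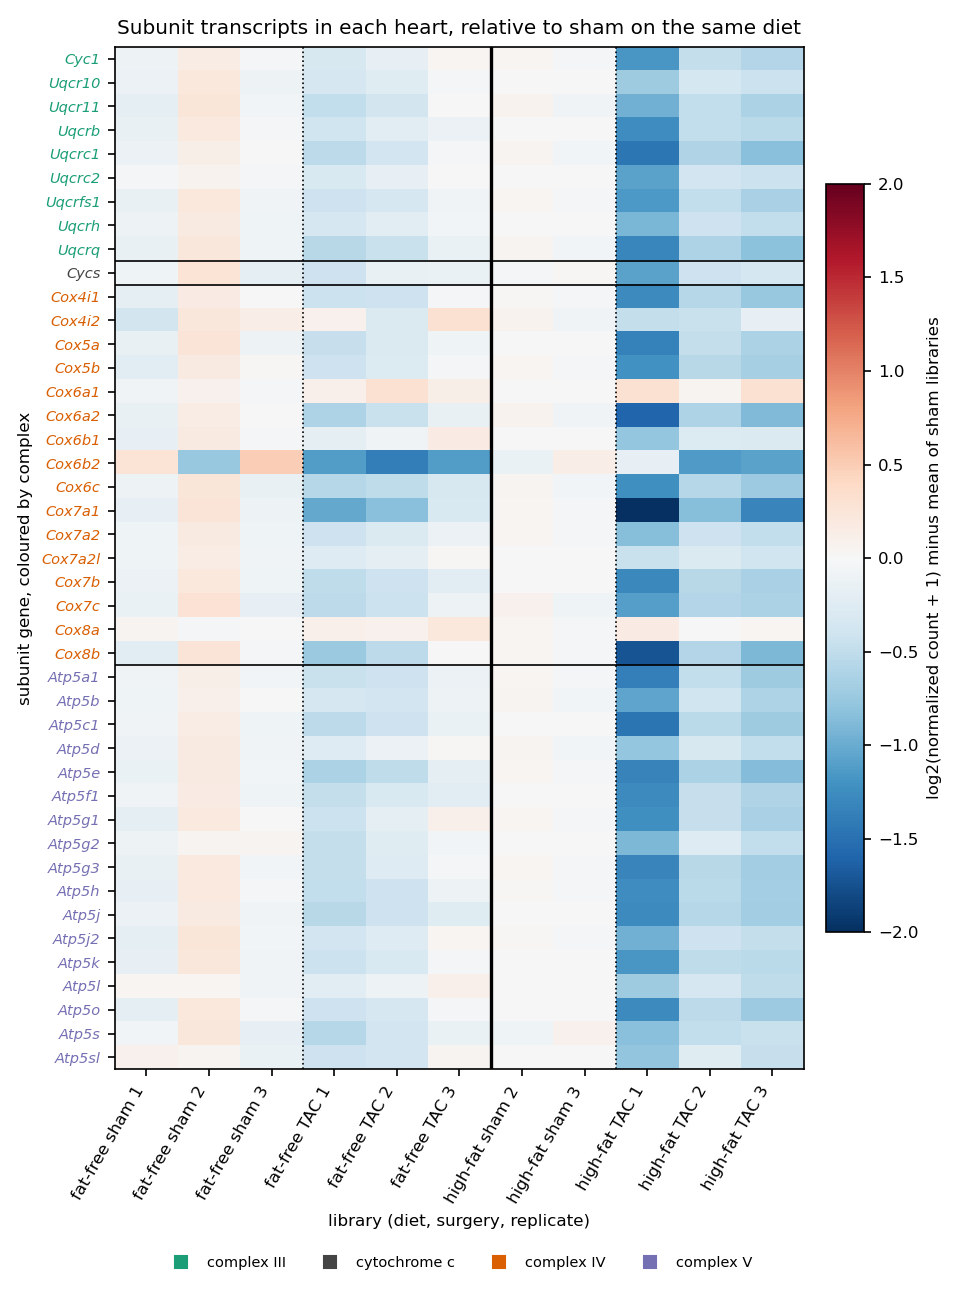
Heat map of the 43 tested genes (rows, grouped and coloured by complex) in the 11 libraries (columns), as log2 of the normalized count plus 1 minus the mean of the sham libraries on the same diet. The high-fat TAC columns are blue in nearly every row, the fat-free TAC columns are paler with replicate 3 close to sham, and the rows of Cox6a1 and Cox8a stay near or above 0 in every TAC library.

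Complex III genes were lower in every high-fat TAC library than in both sham libraries, as were 33.1% of all genes. Of the 9 genes 0 passed on the fat-free diet and 8 fell on the high-fat diet, with medians of -0.25 and -0.74. The shares of all genes that were lower were 10.0% and 14.8%. Uqcrq, an accessory subunit next to cytochrome b, read 15769, 20631 and 16618 normalized counts in fat-free sham, 11902, 12894 and 16065 in fat-free TAC, 21503 and 19729 in high-fat sham, and 8363, 13423 and 11686 in high-fat TAC. The high-fat groups were well apart, while the third fat-free TAC library lay within the sham range. Its log2 fold change was -0.38 ± 0.15 (SE, limma adjusted p = 0.126) on the fat-free diet and -0.91 ± 0.22 (adjusted p = 0.0560) on the other. Uqcrc1, a core protein of the matrix side, read 57512 and 53283 counts in high-fat sham and 20359, 36535 and 31015 in high-fat TAC. It fell by 0.96 ± 0.29 on the log2 scale (limma adjusted p = 0.0751). The accessory subunit Uqcr11 fell by 0.69 ± 0.17 (adjusted p = 0.0576). Its partner core protein Uqcrc2 read 47987 and 48229 against 22796, 36953 and 35718, lower in every TAC library, but did not pass (-0.63 ± 0.27, adjusted p = 0.139). In the authors' deposited table Uqcrc2 has an adjusted p of 0.0367.

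The electron-carrying subunits of complex III fell by similar amounts on the high-fat diet. Cyc1, cytochrome c1, read 39157 and 37277 counts in high-fat sham and 17127, 27517 and 25576 in high-fat TAC (-0.74 ± 0.25, limma adjusted p = 0.0903). Uqcrfs1, the Rieske iron-sulfur protein, fell by 0.76 ± 0.24 on the log2 scale there (adjusted p = 0.0816). Under the fat-free diet they stood at -0.15 and -0.27 and did not pass. The smallest change in the complex was that of Uqcr10, an accessory subunit, at -0.50 ± 0.15 on the high-fat diet (adjusted p = 0.0740). Cycs, the mobile carrier between complexes III and IV, read 12398 and 12812 counts in high-fat sham and 6019, 9456 and 9868 in high-fat TAC. The groups did not overlap, yet its change of -0.61 ± 0.24 did not pass (adjusted p = 0.116), and it has 0.0225 in the authors' deposited table. Without high-fat TAC replicate 1, Cycs and Uqcrc2 stood at -0.38 and -0.41 and both passed.

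Complex IV held both the largest decreases and the genes that were not lower. Of its 16 tested genes 4 fell on the fat-free diet and 11 on the high-fat one (10.0% and 14.8% of all genes did). The 4 subunits with a single gene, Cox5a, Cox5b, Cox6c and Cox7c, all fell on the high-fat diet, by 0.78 to 0.84 on the log2 scale. Cox6c, a small membrane subunit, read 28346, 36047 and 27265 counts in fat-free sham and 20413, 21229 and 24289 in fat-free TAC. All 3 TAC libraries lay below sham, and the change was -0.47 ± 0.14 (limma adjusted p = 0.0582). High-fat sham held 40383 and 37495 and high-fat TAC 16574, 26291 and 23530 (-0.84 ± 0.24, adjusted p = 0.0691). Cox7b, whose isoform Cox7b2 was almost absent, fell by 0.38 ± 0.13 and by 0.83 ± 0.25. Cox4i1, the main subunit 4, fell on the high-fat diet (-0.87 ± 0.26, adjusted p = 0.0745), from 59381 and 57190 counts to 24184, 39205 and 34322.

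On the high-fat diet the 3 muscle isoforms had the lowest fold changes of the 43 genes. Cox7a1 read 20478, 27239 and 21367 normalized counts in fat-free sham and 11242, 12799 and 18473 in fat-free TAC. High-fat sham held 29529 and 27945 and high-fat TAC 5875, 15857 and 11554. Cox7a1 (gene ID 12865, mm10 chr7:30184171-30186030, plus strand) did not overlap between groups on either diet, with TAC at 0.61 times sham on the fat-free diet (log2 -0.72 ± 0.20, limma adjusted p = 0.0450) and at 0.36 times sham on the high-fat diet (-1.49 ± 0.41, adjusted p = 0.0659). Cox8b read 12998, 17836 and 14510 counts in fat-free sham and 8953, 10407 and 14925 in fat-free TAC, which overlapped, and 18915 and 17882 against 5571, 12207 and 9886 on the high-fat diet, which did not. It fell on the high-fat diet (-1.07 ± 0.33, adjusted p = 0.0796) and stood at -0.43 ± 0.20 on the fat-free diet (adjusted p = 0.181). Cox6a2 read 35661, 43785 and 39761 in fat-free sham, 25866, 28981 and 35712 in fat-free TAC, 42971 and 38600 in high-fat sham, and 13626, 26439 and 22002 in high-fat TAC. Its changes were -0.41 ± 0.15 (adjusted p = 0.107) and -1.03 ± 0.30 (adjusted p = 0.0729). Cox6a2 (gene ID 12862, chr7:128205435-128206366) and Cox8b (gene ID 12869, chr7:140898942-140900446) lie on the minus strand of the same chromosome. Without high-fat TAC replicate 1 the high-fat changes of Cox7a1, Cox8b and Cox6a2 were -1.09, -0.74 and -0.76, and all 3 passed. The fat-free call of Cox7a1 was lost without sham replicate 2, TAC replicate 1 or TAC replicate 2.

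Their counterparts of other tissues did not share the decrease evenly. Cox6a1 read 2174, 2401 and 2242 counts in fat-free sham and 2442, 2799 and 2450 in fat-free TAC, and 2009 and 1995 against 2478, 2084 and 2465 on the high-fat diet. Every TAC library lay above every sham library on both diets, with changes of 0.17 ± 0.09 and 0.22 ± 0.11 that did not pass (limma adjusted p = 0.236 and 0.195) and a fat-free value of -0.04 when centred on the cardiomyocyte markers. Cox8a read 3845, 3617 and 3695 in fat-free sham, 3974, 3941 and 4287 in fat-free TAC, 4258 and 4025 in high-fat sham, and 4649, 4137 and 4238 in high-fat TAC. Its changes were 0.13 ± 0.08 and 0.07 ± 0.10 (adjusted p = 0.308 and 0.651), with -0.08 on the fat-free diet when centred on the cardiomyocyte markers and -0.04 on the high-fat diet in the authors' deposited table. Cox7a2 was lower, with 17432 and 16519 counts in high-fat sham and 9367, 12753 and 12087 in high-fat TAC (-0.59 ± 0.17, adjusted p = 0.0723), and at -0.27 ± 0.12 on the fat-free diet it did not pass (adjusted p = 0.152).

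Within each library the isoforms can be set against each other, which no scaling between libraries can alter. Per kb, Cox6a2 made up 93.0, 93.7 and 93.5% of the Cox6a pair in fat-free sham and 89.6, 89.3 and 92.2% in fat-free TAC. Its share was 94.5 and 94.0% in high-fat sham and 81.6, 91.1 and 87.8% in high-fat TAC. Cox7a1 went from 76.8, 78.5 and 77.6% of its pair to 69.4, 70.4 and 75.4%, and from 77.7 and 77.7% to 56.4, 71.9 and 66.3%. The muscle form stayed the larger share in all 11 libraries for both pairs, and every TAC library lay below every sham library of its diet. Cox8b went from 83.5, 88.1 and 85.5% to 77.2, 79.9 and 83.9% on the fat-free diet, where the groups overlapped, and from 87.0 and 87.0% to 64.3, 81.6 and 77.8% on the high-fat diet.

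As log2 ratios of normalized counts, Cox6a2 over Cox6a1 was 4.12 ± 0.08 in fat-free sham and 3.55 ± 0.28 in fat-free TAC (SD, n = 3), and 4.35 ± 0.10 (n = 2) and 3.09 ± 0.61 (n = 3) on the high-fat diet. The TAC minus sham difference was -0.58 and -1.25 for Cox6a, -0.45 and -0.90 for Cox7a, and -0.55 and -1.14 for Cox8, fat-free first. Without the libraries above 1000 Myl7 counts these were -0.57 and -0.94 for Cox6a, -0.44 and -0.64 for Cox7a, and -0.70 and -0.76 for Cox8. With groups this small a two-sided exact permutation test could not go below 0.1 on either diet, and none of the 16 ratios passed (adjusted p of at least 0.229). With both diets combined and labels permuted within each diet (200 arrangements, added after the values were seen), the mean differences were -0.91, -0.67 and -0.84, with exact permutation p = 0.01, 0.015 and 0.02, or 0.0267, 0.0300 and 0.0320 adjusted over 8 pairs. As the pooled test was chosen after the values were seen, its p-values, here and for the other pairs, are a description. They are not independent support for a difference between TAC and sham.

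**Figure D4:**
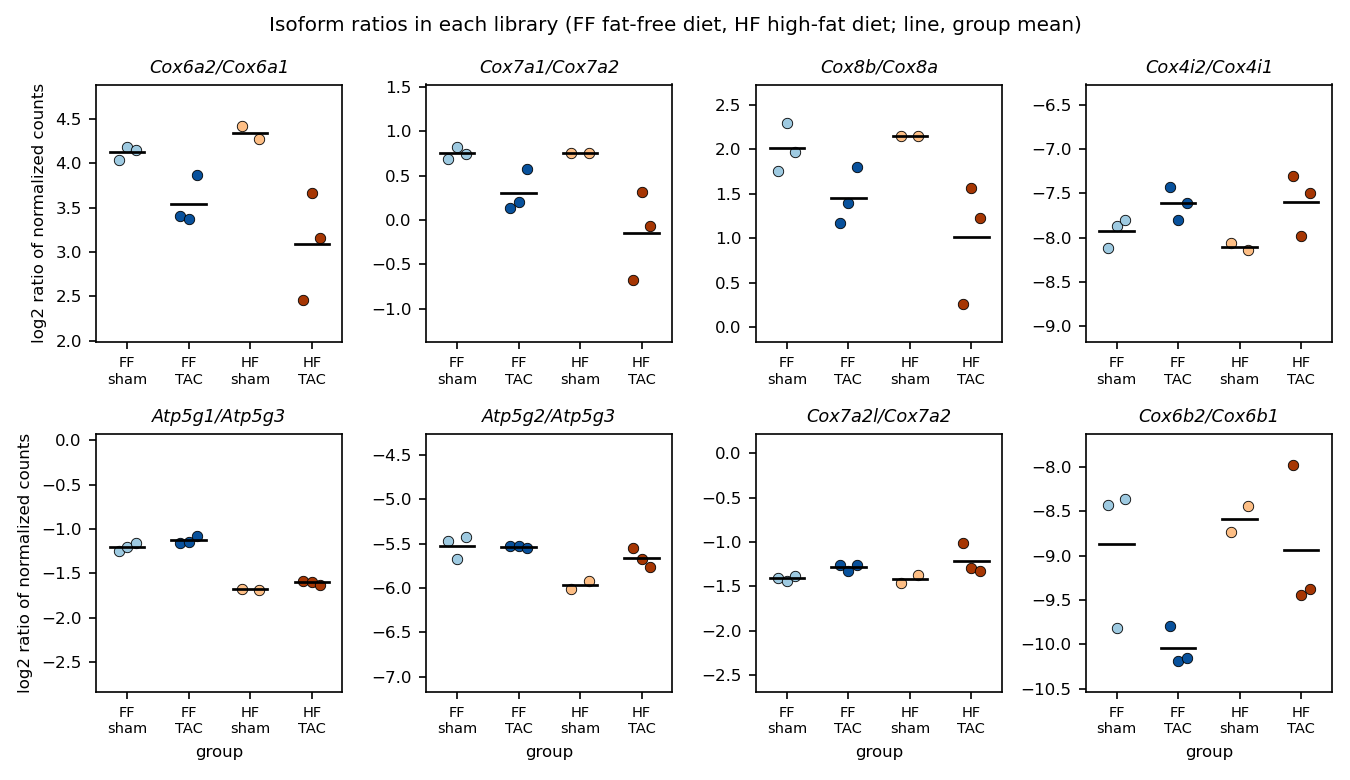
Log2 ratio of normalized counts of paired isoforms in each library (points) with the group mean (line), for 8 pairs on axes of equal span (FF, fat-free diet, HF, high-fat diet). The 3 muscle isoforms over their counterparts are lower in TAC on both diets (-0.58 and -1.25 for Cox6a2 over Cox6a1), while Atp5g1 over Atp5g3 moves by 0.08 on each.

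The other pairs of complex IV differed in size and direction. Cox4i2, at 152 to 246 counts, stood higher against Cox4i1 in TAC, by 0.32 and 0.51 on the log2 scale, which with both diets pooled gave an exact permutation p = 0.025 (adjusted 0.0333), and by 0.17 and 0.36 without the libraries above 1000 Myl7 counts. Its own level did not pass on either diet (0.03 ± 0.21 and -0.36 ± 0.17), and its fat-free sign turned under several settings, to -0.18 with cardiomyocyte centring. Cox7a2l, a relative of Cox7a2, fell on the high-fat diet by 0.38 ± 0.10 (limma adjusted p = 0.0640), a direction that turned to 0.04 under library-total scaling. Against Cox7a2 it was 0.13 and 0.21 higher in TAC (exact permutation p = 0.01 with both diets, adjusted 0.0267). Without high-fat TAC replicate 1 the high-fat value was 0.11. Cox6b2 read 46, 22 and 54 counts in fat-free sham and 17, 14 and 17 in fat-free TAC, all 3 below sham, and it fell by 1.20 ± 0.38 (limma adjusted p = 0.0694). High-fat sham held 47 and 57 and high-fat TAC 46, 23 and 24, and it did not pass there (-0.79 ± 0.38, adjusted p = 0.177). Without the libraries above 1000 Myl7 counts Cox6b2 stood at -0.49 on the fat-free diet, where it did not pass, and at -1.11 on the high-fat diet, where it passed. Its ratio to Cox6b1 differed between TAC and sham by -1.17 and -0.35, fat-free first, or by -0.35 and -0.83 without those libraries, with an exact permutation p of 0.09 over both diets (adjusted 0.103). Cox6b1 itself stood at -0.03 ± 0.13 and -0.44 ± 0.19 and did not pass, and without high-fat TAC replicate 1 the latter was -0.28 and passed.

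The promoters of these isoforms are shown because the pairs moved apart, with Cox6a2 not shown. The windows are those of RefSeq (GRCm38.p6), 250 bases before to 50 after the annotated start, 5′ to 3′ on the gene's strand, with every CpG in capitals. Cox7a1 lies at chr7:30183921-30184220 (plus strand), Cox8b at chr7:140900397-140900696 (minus strand), Cox7a2 at chr9:79759804-79760103 (minus strand), Cox8a at chr19:7217567-7217866 (minus strand) and Cox6a1 at chr5:115348909-115349208 (minus strand).
Cox7a1: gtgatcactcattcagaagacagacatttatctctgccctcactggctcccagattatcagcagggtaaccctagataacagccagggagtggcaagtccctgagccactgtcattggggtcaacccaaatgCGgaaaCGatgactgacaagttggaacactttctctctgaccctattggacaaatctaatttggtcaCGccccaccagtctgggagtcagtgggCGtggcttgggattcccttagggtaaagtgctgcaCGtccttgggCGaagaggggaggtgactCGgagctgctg
Cox8b: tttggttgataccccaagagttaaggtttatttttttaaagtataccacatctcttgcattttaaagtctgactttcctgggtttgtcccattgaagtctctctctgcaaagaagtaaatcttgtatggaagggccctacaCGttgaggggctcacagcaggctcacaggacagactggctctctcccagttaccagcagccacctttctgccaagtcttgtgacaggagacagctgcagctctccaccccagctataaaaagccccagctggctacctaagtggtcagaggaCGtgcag
Cox7a2: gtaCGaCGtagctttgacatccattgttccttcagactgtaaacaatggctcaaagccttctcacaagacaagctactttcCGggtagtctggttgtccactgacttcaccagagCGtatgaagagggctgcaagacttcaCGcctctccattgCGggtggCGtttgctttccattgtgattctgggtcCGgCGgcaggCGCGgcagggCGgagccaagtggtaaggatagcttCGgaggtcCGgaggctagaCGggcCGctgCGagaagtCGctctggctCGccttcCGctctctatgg
Cox8a: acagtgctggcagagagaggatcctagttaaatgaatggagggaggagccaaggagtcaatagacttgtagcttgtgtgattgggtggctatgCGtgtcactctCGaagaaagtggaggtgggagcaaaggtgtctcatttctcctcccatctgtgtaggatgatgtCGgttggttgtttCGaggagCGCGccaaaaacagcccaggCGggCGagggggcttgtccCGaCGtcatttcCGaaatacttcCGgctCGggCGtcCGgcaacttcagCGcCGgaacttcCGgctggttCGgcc
Cox6a1: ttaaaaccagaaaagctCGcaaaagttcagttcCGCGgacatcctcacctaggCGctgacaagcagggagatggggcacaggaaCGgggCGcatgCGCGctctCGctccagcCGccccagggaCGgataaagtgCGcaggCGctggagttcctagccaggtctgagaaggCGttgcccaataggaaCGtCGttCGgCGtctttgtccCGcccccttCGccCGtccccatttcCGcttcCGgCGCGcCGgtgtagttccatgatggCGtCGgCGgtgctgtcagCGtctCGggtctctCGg

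Of the 3 muscle forms, Cox7a1 and Cox8b had 7 and 2 CpGs in this window, fewer than Cox7a2, Cox8a and Cox6a1 with 20, 19 and 32. The median was 19 over the 35 of 45 genes with a window and 8 over all 27025 genes with one. Short motifs linked to respiratory genes were searched on both strands. The core of the NRF1 site, CGCATGCG, was found in 8 of the 35 windows (22.9%, against 2.07% of all windows), among them Cox6a1, Cycs, Uqcrc1 and Atp5j. The ETS motif CCGGAAG, bound by GABP, was found in 10 (28.6% against 9.93%), among them Cox8a and Cox6a1. The YY1 motif AAGATGGC was found in 4 (11.4% against 3.19%), and the estrogen-related receptor motif TCAAGGTCA in 1, Atp5g3 (2.86% against 0.466%). The GC box GGGCGG was found in 13 (37.1% against 38.2%) and TATAAA in 3 (8.57% against 15.7%), Cox8b among them. Cox7a1 held none of the 6. A match is a description of these letters and not a bound site.

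Complex V genes, with Atp5s and Atp5sl counted by their symbol, were lower throughout on the high-fat diet. There 13 of 17 fell, against 2 of 17 on the fat-free diet (medians -0.78 and -0.26). Of all genes 14.8% fell on the high-fat diet and 10.0% on the fat-free diet, and the fat-free count is near that share. The most abundant, Atp5b and its partner in the catalytic head Atp5a1, did not pass on either diet. Atp5b read 190105, 214629 and 199366 counts in fat-free sham, 159453, 154659 and 187363 in fat-free TAC, 234381 and 218590 in high-fat sham, and 109338, 171003 and 147349 in high-fat TAC. The groups did not overlap on either diet, and the changes were -0.27 ± 0.18 (limma adjusted p = 0.323) and -0.69 ± 0.40 (adjusted p = 0.246). These SEs are wider than the spread of the counts listed, since limma moves them toward a trend with abundance fitted over all genes. In the authors' deposited table Atp5b is lower on both diets (adjusted p = 0.0962 and 0.00113), and so is Atp5a1 (0.0607 and 0.00279).

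All 3 genes of the rotating central stalk and 3 of 4 of the fixed peripheral stalk fell on the high-fat diet (14.8% of all genes did). Atp5e, the epsilon subunit of the central stalk, read 12365, 15311 and 13026 counts in fat-free sham, 8699, 9465 and 11895 in fat-free TAC, 18777 and 17934 in high-fat sham, and 7277, 11881 and 10079 in high-fat TAC. It fell on both diets, by 0.44 ± 0.14 (limma adjusted p = 0.0697) and 0.94 ± 0.22 (adjusted p = 0.0538), the latter the smallest adjusted p of the 43 genes on that diet. The gamma and delta subunits Atp5c1 and Atp5d fell on the high-fat diet by 0.90 ± 0.31 and 0.52 ± 0.17. In the peripheral stalk Atp5j, coupling factor 6, fell on both diets (-0.40 ± 0.13, adjusted p = 0.0704, and -0.85 ± 0.24, adjusted p = 0.0699), and Atp5h and Atp5o fell on the high-fat diet by 0.82 ± 0.23 and 0.84 ± 0.24. Atp5f1, subunit b, missed the threshold there (-0.78 ± 0.28, adjusted p = 0.102).

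The proton-carrying c ring is made from 3 genes that encode the same mature protein. Per kb, Atp5g3 made up 71.8 to 73.9% of their transcripts in the fat-free libraries and 77.9 to 79.3% in the high-fat libraries, Atp5g1 24.4 to 26.6% and 19.3 to 20.3%, and Atp5g2 1.51 to 1.77% and 1.29 to 1.74%. The ranges of Atp5g3 and Atp5g1 did not overlap between the diets, a comparison within libraries that was not tested. Each diet has its own deposited table, so a difference of diet and one between the tables cannot be told apart. Atp5g1 and Atp5g3 fell on the high-fat diet by 0.78 ± 0.25 and 0.86 ± 0.29 (limma adjusted p = 0.0816 and 0.0908). The ratio of Atp5g1 to Atp5g3 was 0.08 higher in TAC on each diet, a difference of 1.05 times with every TAC library above every sham library. With both diets its exact permutation p of 0.005 was the smallest that 200 arrangements can give (adjusted 0.0267). Atp5g2 over Atp5g3 moved by -0.01 and 0.31 and did not pass (exact permutation p = 0.115).

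The membrane accessory subunits Atp5j2, Atp5k and Atp5l fell on the high-fat diet, by 0.62 ± 0.21, 0.74 ± 0.22 and 0.52 ± 0.13. Atp5l, subunit g of the dimer contact, read 1336 and 1337 counts in high-fat sham and 816, 1057 and 935 in high-fat TAC, and stood at -0.07 ± 0.11 on the fat-free diet, with 0.07 under library-total scaling. Its values are uncertain, since 68.5% of the 50-base stretches of its transcripts also occur in transcripts of 13 other genes. The same share was 43.2% for Uqcrb, 38.3% for Atp5g2, 36.9% for Atp5h, 28.2% for Cycs and 12.3% for Cox6a1, and 0 for 23 of the 45. Atp5s and Atp5sl, which carry the symbol but are not built into the synthase, fell on the high-fat diet by 0.59 ± 0.15 and 0.50 ± 0.17.

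The log2 fold change under TAC was lower on the high-fat than on the fat-free diet for 41 of the 43 genes, all but Cox6a1 and Cox6b2, by a median of -0.45 on the log2 scale (-0.03 over all 14729 genes). None passed the test of the difference between the diets' TAC effects in limma over the 11 libraries (smallest adjusted p = 0.784), and neither did any other gene (0%). At an unadjusted p under 0.05 there was 1, Atp5l (-0.45 ± 0.17, unadjusted p = 0.0224), against 4.61% of all genes. For Cox7a1 the difference was -0.77 ± 0.47, for Cox8b -0.65 ± 0.41 and for Cox6a2 -0.63 ± 0.34. The median difference was -0.27 without high-fat TAC replicate 1, -0.17 without all libraries above 1000 Myl7 counts, -0.04 with log2 Myl7 as a covariate and -0.10 with cardiomyocyte centring. The diets' tables were normalized separately, share no library, and rank the genes in a similar order, with a Spearman rho of 0.78 across the 43 genes as a description. Across the same genes a higher level per kb in sham went with a lower fold change, with a rho of -0.35 on the fat-free diet and -0.65 on the other, while gene length gave 0.12 and 0.08.

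**Figure D5:**
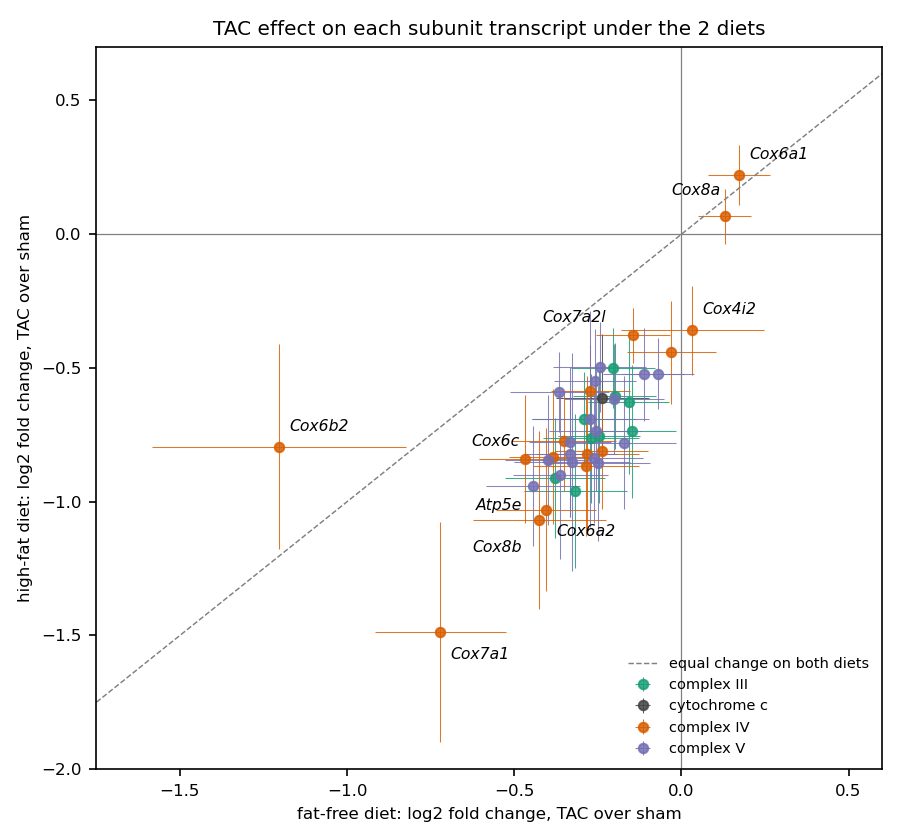
Log2 fold change of TAC over sham on the fat-free diet (x axis) and the high-fat diet (y axis) for the 43 tested genes, with SE bars from limma, coloured by complex. Nearly all points lie below the dashed line of equal change, Cox7a1 is farthest down at -0.72 and -1.49, and Cox6a1 and Cox8a lie above 0 on both axes.

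Other genes of the same complexes were read from lists outside the symbol rule. Of 4 subunits and partners with other symbols, 3 fell and 1 rose on the high-fat diet (14.8% and 16.9% of all genes did) and none passed on the fat-free diet. Ndufa4, a complex IV subunit despite its name, fell by 0.74 ± 0.24, and the synthase subunit Usmg5 by 0.78 ± 0.23, calls that were lost with library-total scaling (-0.32 and -0.36) and, for Ndufa4, with nuclear-total scaling (-0.52). Atpif1, the inhibitor that blocks the synthase when it runs in reverse, was the one that rose, from 3042 and 3146 counts in high-fat sham to 4328, 4286 and 4978 in high-fat TAC (0.55 ± 0.11, limma adjusted p = 0.0429). Fat-free sham held 2877, 4040 and 3551 and fat-free TAC 3720, 4622 and 5168, where it did not pass (0.37 ± 0.16, adjusted p = 0.151).

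Among 31 tested genes for the assembly or expression of complexes III to V, 7 fell and 1 rose on the fat-free diet (10.0% and 14.2% of all genes did). On the high-fat diet 15 fell and 1 rose (14.8% and 16.9% of all genes did). The medians were -0.19 and -0.51. Ttc19, needed for complex III, fell by 0.45 ± 0.10 and 0.67 ± 0.20. Lrpprc, which stabilizes mitochondrial messages, fell by 0.40 ± 0.10 and 0.88 ± 0.30. Uqcc2, an assembly factor of complex III, and Cox17, a copper chaperone of complex IV, fell on the high-fat diet by 0.55 ± 0.12 and 0.58 ± 0.13. Cox19, whose yeast counterpart is needed to build complex IV, was the one that rose, from 787, 1041 and 890 counts to 1209, 1700 and 1317 (0.63 ± 0.15, adjusted p = 0.0329) and from 1127 and 1178 to 1544, 1386 and 1640 (0.40 ± 0.11, adjusted p = 0.0641). Cox19 did not pass on the fat-free diet without sham replicate 1 or without TAC replicate 2, Lrpprc did not pass without TAC replicate 2, and Ttc19 passed with each library left out in turn. With the Myl7 covariate fat-free Cox19 stood at 0.35 and did not pass, without the libraries above 1000 Myl7 counts the fat-free calls of Cox19 (0.52), Ttc19 and Lrpprc were lost, and with library-total scaling the high-fat calls of Ttc19 and Lrpprc were lost (-0.25 and -0.46), that of Lrpprc also with nuclear-total scaling (-0.65).

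Of the mitochondrial genes that complete these complexes, 0 of 5 tested with limma passed on either diet. The authors' deposited table has 2 of 6 lower on the fat-free diet and 3 of 6 on the high-fat diet, and 0 higher. Of all its genes 9.92% and 17.7% are lower. COX1, the catalytic subunit of complex IV, read 3300165, 3722129 and 3098681 normalized counts in fat-free sham, 2194975, 2380455 and 2875483 in fat-free TAC, 4885890 and 4806795 in high-fat sham, and 1753876, 3143172 and 2958923 in high-fat TAC. The groups did not overlap, but the changes did not pass (-0.45 ± 0.48 and -0.93 ± 2.46). Both SEs are wider than the spread of the counts listed, since limma moves them toward a trend with abundance fitted over all genes. At so high a level the limma test cannot decide whether COX1 changed. CYTB was likewise at -0.85 ± 1.57 on the high-fat diet. Per kb, COX1 stood at 4.94, 4.35 and 4.35 times the summed nuclear genes of complex IV in fat-free sham and at 4.28, 4.28 and 4.18 times in fat-free TAC, with every TAC library below sham. The ratio was 5.39 and 5.59 in high-fat sham and 4.90, 5.23 and 5.58 in high-fat TAC, which overlapped. CYTB, cytochrome b, stood at 6.03, 5.54 and 5.30 times the nuclear genes of complex III in fat-free sham, 5.13, 5.24 and 4.90 in fat-free TAC, 6.87 and 6.74 in high-fat sham, and 6.09, 5.96 and 6.60 in high-fat TAC. Every TAC library lay below every sham library of its diet for CYTB, and these ratios were not tested. COX2, COX3, ATP6 and ATP8 had 2 to 153 counts in any library and were not used for ratios.

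Of 11 regulators of mitochondrial genes, 4 fell on the fat-free diet (10.0% of all genes did) and 2 on the high-fat diet (14.8% of all genes did). Esrra, the estrogen-related receptor alpha, read 4503, 5346 and 4627 counts in fat-free sham and 3229, 3285 and 3951 in fat-free TAC (-0.47 ± 0.11, limma adjusted p = 0.0306), and 5006 and 4445 against 2412, 3570 and 2762 on the high-fat diet (-0.71 ± 0.18, adjusted p = 0.0585). The coactivator gene Ppargc1a fell on both diets (-0.37 ± 0.10, adjusted p = 0.0499, and -0.95 ± 0.32, adjusted p = 0.0892). Esrrg and Gabpa fell on the fat-free diet by 0.32 ± 0.11 and 0.30 ± 0.09 and stood at -0.43 and -0.34 on the high-fat diet. Nrf1 did not pass on either diet (-0.26 and 0.07). With library-total scaling Ppargc1a passed on neither diet (-0.22 and -0.53; -0.73 with nuclear-total scaling on the high-fat diet, also without passing), Esrra was at -0.30 and did not pass on the high-fat diet, and Esrrg and Gabpa did not pass on the fat-free diet (-0.18 and -0.16). Gabpa also lost it with nuclear-total scaling (-0.26) and with the Myl7 covariate (-0.23). Without the libraries above 1000 Myl7 counts none of the 4 passed on the fat-free diet (-0.57 for Esrra, -0.31 for Ppargc1a, -0.41 for Esrrg and -0.29 for Gabpa). On the fat-free diet Esrra passed with each library left out but TAC replicate 2, Esrrg and Gabpa passed only without sham replicate 3 or TAC replicate 3, and Ppargc1a passed only without TAC replicate 3. Under high fat Atpif1, Cox19, Esrra, Ppargc1a, Ttc19, Lrpprc, Ndufa4 and Usmg5 each lost the call when either sham library or TAC replicate 3 was left out. Complex I, the nearest comparison, was taken by symbol and had 6 of 36 genes lower on the fat-free diet and 35 of 36 on the other (10.0% and 14.8% of all genes were). The exception on the high-fat diet was Ndufa4l2 (-0.02), a relative of Ndufa4 that the symbol pattern took in. The medians were -0.30 and -0.80 beside -0.27 and -0.76 for complexes III to V. Complex II had 2 of 4 genes lower on the fat-free diet and 3 of 4 on the high-fat diet (10.0% and 14.8% of all genes were), with medians of -0.39 and -0.90.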

How the data were processed

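Libraries were made with a stranded mRNA kit according to the extraction protocol in the labels. STAR, Subread, featureCounts and DESeq2 with build mm10 are named in the submitters' processing notes, without versions. The per-library values the authors deposited are read counts normalized by a size factor within each diet's table and rounded, and were treated as a score, since they are whole numbers but not raw counts. The authors deposited log2 fold changes and adjusted p-values from their DESeq2 run, read at 10% FDR per the labels. Of 12 labelled libraries 11 had a column, and 0 columns were left unmatched.

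Tested genes reached 10 normalized counts in 3 libraries on the fat-free diet, or in 2 for the high-fat table and for the difference. Log2 of each value with 1 added was tested with limma 3.58.1 in R 4.3.3 (data.table package, version 1.17.8), two-sided, with a mean-variance trend and a Benjamini-Hochberg adjusted p under 0.1 over all genes. A fold change on this scale understates that of low genes. A count model had been foreseen for raw counts and was not used. Whether the TAC effect differed between diets was tested in a single model over 11 libraries, and the diets themselves were not tested against each other. Isoform ratios were tested by exact permutation. Levels per kb used the exon length in the tables. Shared stretches were counted in GENCODE transcripts, and promoters are those of RefSeq (GRCm38.p6). The model was tested on simulated data. Python 3.11.15, numpy 2.4.6, pandas 2.3.3, scipy 1.17.1 and matplotlib 3.10.9 were used.

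The genes, lists, pairs and tests were chosen with earlier results of these data known, so no list is independent evidence. Named were 12 chosen subunits, the isoform pairs and the 4 genes of smallest adjusted p per diet and complex among those that passed. The 2 of smallest adjusted p were named for the lists of subunits with other symbols, assembly genes and regulators. Further genes, such as Cox19, Esrrg, Gabpa, Ndufa4, Nrf1 and the remaining subunits, were named after their values were seen. Depth is known only as normalized counts, and the limit of 3 counts covers counting error only.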

Additional observations from a re-analysis of the deposited data

Results flagged for a closer look

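Cox7b2, the second isoform of complex IV subunit 7b, moved in opposite directions on the diets. It read 3, 3 and 3 normalized counts in fat-free sham and 6, 4 and 12 in fat-free TAC, every TAC library above sham. On the high-fat diet it read 8 and 7 in sham and 1, 3 and 0 in TAC, every TAC library below. The TAC effect was 3.03 lower on the high-fat diet on the log2 scale of the count plus 1 (-3.03), and this difference was not tested, as the gene did not pass the filter on low values. With so few counts, 1 or a few reads set each value.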

How the results depend on the processing

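The median log2 fold change of the subunit genes stayed below 0 on both diets and for the difference under every alternative run. The number passing did not stay. On the fat-free diet, where 6 fell, 3 passed with no filter on low values, 3 without the trend but with robust errors, 1 with all 4 groups in one model, 12 in the authors' deposited table, 25 with log2 Myl7 as a covariate, 40 with cardiomyocyte centring (median -0.48) and 0 without the libraries above 1000 Myl7 counts, which leaves 1 sham library assumed to vary like the others and was chosen after seeing the data. Library-total scaling gave 2 higher there, Cox6a1 and Cox8a. Leaving out 1 library gave 0 to 24 lower. On the high-fat diet, where 32 fell, 8 passed with no filter, 7 without the trend, 21 with nuclear-total scaling (1 higher) and 13 with library-total scaling (2 higher, median -0.34). Leaving out 1 library gave 0 to 40 lower and 0 to 1 higher, a lone sham library being assumed to vary like the TAC libraries, and array weights gave 1 higher. For the difference the median of -0.45 became -0.17 with library-total scaling, -0.26 with nuclear-total scaling, -0.10 with cardiomyocyte centring, -0.044 with the Myl7 covariate, -0.17 without the libraries above 1000 Myl7 counts, and -0.59 to -0.27 with 1 library left out. The scalings shift all genes alike, moving the median of all genes to 0.13, 0.02 and -0.23 on the fat-free diet and to 0.40, 0.21 and 0.13 on the high-fat diet (library total, nuclear total, cardiomyocyte markers). The cause of the changes in the number passing was not tested.

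Whether replicate numbers pair the samples could not be decided. On the fat-free diet the correlation of same-numbered deviations was 0.44, 0.14 and -0.16, and that of differently numbered ones ran from -0.44 to 0.34. It was 0.15 and -0.12 on the high-fat diet, where the deviations of 2 sham libraries mirror each other and cannot show pairing. With the replicate number as a block, 5 genes passed on the fat-free diet, 40 on the high-fat diet and 0 for the difference (median -0.27). High-fat TAC replicate 1 has no sham library of its number, so for the high-fat diet and the difference the block gave the same medians as leaving that library out. It is no separate check there. Without the libraries above 1000 Myl7 counts, the fat-free ratio Cox6b2 over Cox6b1 was -0.35 and Atp5g2 over Atp5g3 was 0.14.

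Some single values changed sign, and none passed the threshold after the change. On the fat-free diet Atp5l was 0.071 with library-total scaling and 0.005 without TAC replicate 1. Cox4i2 was -0.18 with cardiomyocyte centring, -0.15 without sham replicate 1, -0.10 without TAC replicate 3 (-0.15 to 0.19 with 1 library left out), -0.021 with the Myl7 covariate and -0.22 without the libraries above 1000 Myl7 counts. Cox6a1 was -0.038 and Cox8a -0.082 with cardiomyocyte centring. Cox6b1 was 0.11 and 0.008 with library-total and nuclear-total scaling, 0.063 without sham replicate 2, 0.049 without TAC replicate 1 (-0.127 to 0.063 with 1 library left out) and 0.009 with array weights. On the high-fat diet Cox4i2 was 0.058 and Cox7a2l 0.041 with library-total scaling, and Cox8a was -0.040 in the authors' deposited table. For the difference, Cox7a1, Cox7a2 and Cox8b were 0.038, 0.010 and 0.051 with the Myl7 covariate, Cox7a2 was 0.040 with cardiomyocyte centring, and Cox8a was 0.21, 0.12 and 0.29 with library-total, nuclear-total and cardiomyocyte scaling. Precision is limited by 2 high-fat sham libraries.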
